A study of Mus musculus with 22 samples.

Results

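Transcript levels of 7 genes for the cartilage-type collagens were followed in mouse limb chondrocytes and cartilage with and without Dnmt1. The genes were taken by exact symbol from each count table: Col2a1, Col11a1, Col11a2, Col27a1, Col9a1, Col9a2 and Col9a3. All 7 were found among the 34866 genes of both culture tables and of the estimated-count cartilage table, and among the 23911 genes of the whole-number cartilage table.

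Type II collagen is the main fibre of cartilage, a triple helix of 3 identical chains made by Col2a1. Collagen XI, built with the chains of Col11a1 and Col11a2, sits within the same fibril and limits its thickness. The 3 chains of collagen IX, made by Col9a1, Col9a2 and Col9a3, form a heterotrimer that decorates the fibril surface and links it to other matrix proteins. Collagen XXVII, made by Col27a1, is a separate fibrillar collagen of cartilage and is prominent in the growth plate. In chondrocytes these genes are known targets of SOX9 with SOX5 and SOX6, and chondrocytes that become hypertrophic lower them and turn on Col10a1. DNMT1 copies CpG methylation to the new DNA strand when cells divide.

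The study asked how Dnmt1 affects gene expression in limb chondrocytes. The controls were labelled Dnmt1 flox in culture and flox in cartilage, and the mutants Prrx1-Cre;Dnmt1 flox/flox in culture and cKO in cartilage. All groups thus carried a floxed Dnmt1 allele, and the labels did not say how many floxed copies the controls had. Prrx1-Cre is active in the mesenchyme of the early limb bud, so the deletion is not limited to chondrocytes. The cultures were primary chondrocytes of knee articular cartilage from mice at postnatal days 3 to 5, kept in DMEM with serum. Cultures without treatment (day 0) comprised 3 control and 3 cKO libraries. Cultures treated for 3 days with BMP2, a growth factor that drives chondrocyte differentiation, labelled 100 ng/µl (day 3), comprised 4 control and 4 cKO libraries. Cartilage of mice at postnatal day 5, treated with collagenase to remove connective tissue, gave 4 control and 4 cKO libraries, 2 male and 2 female per genotype. The labels named biological replicates in culture but no litter, batch or number of animals per sample, so p-values measure the spread between these libraries.

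On the mouse build GRCm38, Col2a1 (ENSMUSG00000022483) lies at chr15:97975602-98004695 on the minus strand, and the other genes lie on plus strands. Col11a1 (ENSMUSG00000027966) lies at chr3:114030540-114220718 and Col11a2 (ENSMUSG00000024330) at chr17:34039437-34066685. Col27a1 (ENSMUSG00000045672) lies at chr4:63214004-63334991. Col9a1 (ENSMUSG00000026147) lies at chr1:24177610-24252684, Col9a2 (ENSMUSG00000028626) at chr4:121039385-121055322 and Col9a3 (ENSMUSG00000027570) at chr2:180597790-180622189. Their annotated exons cover 3095 bases in Col9a2 to 13022 bases in Col27a1. Exons of Tcfl5 overlap those of Col9a3 on the opposite strand. Tcfl5 had 10000 counts over all cultures against 814847 for Col9a3, and 99 against 23310 in cartilage. Whether the counting used strand was not stated.

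The 7 genes fell together in both cultures, and DNMT1 acts on CpG sites. The sequences before RefSeq start sites are therefore shown for 3 genes whose CpG content differs. RefSeq promoter entries on GRCm38.p6 matched 5 of the 7 genes with 6 windows of 250 bases. These start sites can differ from the gene starts above. The Col11a2 window ends short of its gene start, and the Col9a2 window crosses it. The Col27a1 window and the second Col9a1 window lie inside the gene. Capitals mark CpG pairs. The windows are chr3:114030290-114030539 for Col11a1, chr17:34038888-34039137 for Col11a2 and chr1:24177360-24177609 for the first Col9a1 start, all on the plus strand.
Col11a1: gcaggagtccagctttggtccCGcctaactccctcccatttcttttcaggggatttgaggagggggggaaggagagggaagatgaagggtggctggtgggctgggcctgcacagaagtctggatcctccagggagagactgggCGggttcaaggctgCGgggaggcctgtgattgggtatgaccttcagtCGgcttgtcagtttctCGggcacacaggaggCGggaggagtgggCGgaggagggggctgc
Col11a2: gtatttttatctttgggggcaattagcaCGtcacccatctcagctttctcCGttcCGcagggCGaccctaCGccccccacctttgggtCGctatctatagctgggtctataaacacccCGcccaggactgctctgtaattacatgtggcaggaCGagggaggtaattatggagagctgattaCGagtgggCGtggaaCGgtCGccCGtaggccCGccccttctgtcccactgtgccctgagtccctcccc
Col9a1: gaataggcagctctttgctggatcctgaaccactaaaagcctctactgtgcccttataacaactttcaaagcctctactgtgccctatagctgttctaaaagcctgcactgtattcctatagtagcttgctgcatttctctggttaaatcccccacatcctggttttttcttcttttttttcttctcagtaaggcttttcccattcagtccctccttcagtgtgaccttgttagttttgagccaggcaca

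The window of Col11a1 held 7 CpG pairs and that of Col11a2 held 14, while both Col9a1 windows held 0. Col9a2 had 9 and Col27a1 had 15. Over all 32851 windows of this length the median was 6, with quartiles of 2 and 16. These genes thus did not share a CpG density. The letters TATAAA, searched on both strands, occurred once before Col11a2 and in none of the other 5 windows, against 12.4% of all windows. Neither of the SOX-type letter strings ACAAAG or ACAATG occurred on either strand in the 6 windows, against 16.5% and 10.7% of all windows. So few windows, searched for exact strings only, cannot show whether SOX sites were missing, and Col2a1 and Col9a3 had no window. No methylation was measured in these samples.

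Day 0 libraries held 41749546 to 51741669 counts, day 3 libraries 14434320 to 18918905 and cartilage libraries 1100198 to 1888896. Dnmt1 itself was lower in cKO in each setting, by -2.44 (day 0), -1.41 (day 3) and -1.66 (cartilage) on the log2 scale, and was called each time. The summed level of 8 chondrocyte markers other than these collagens was at least 5586 CPM (the count scaled to library size) in every library except those of day 3 cKO. There it was 2626, 2089, 2782 and 392.8 CPM in replicates 1 to 4. The library day 3 cKO replicate 4 lay far below its group in these markers, and the day 3 genotype effects and list counts are given with and without it. Without it the Dnmt1 value at day 3 was -1.17.

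Col2a1 was the most abundant transcript by counts in all 7 control cultures and in 2 of the 3 day 0 cKO libraries. The 7 collagen genes together held at least 13.45% of all counts in day 0 control libraries and 5.072 to 6.126% in day 0 cKO libraries. At day 3 they held 9.649 to 11.19% in control and 0.1337 to 1.724% in cKO. In cartilage the shares were 6.717 to 8.514% and 3.025 to 5.829%. In each setting every cKO library was below every control library. In these bulk samples, fewer chondrocytes and less collagen RNA per chondrocyte cannot be told apart.

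**Figure D1:**
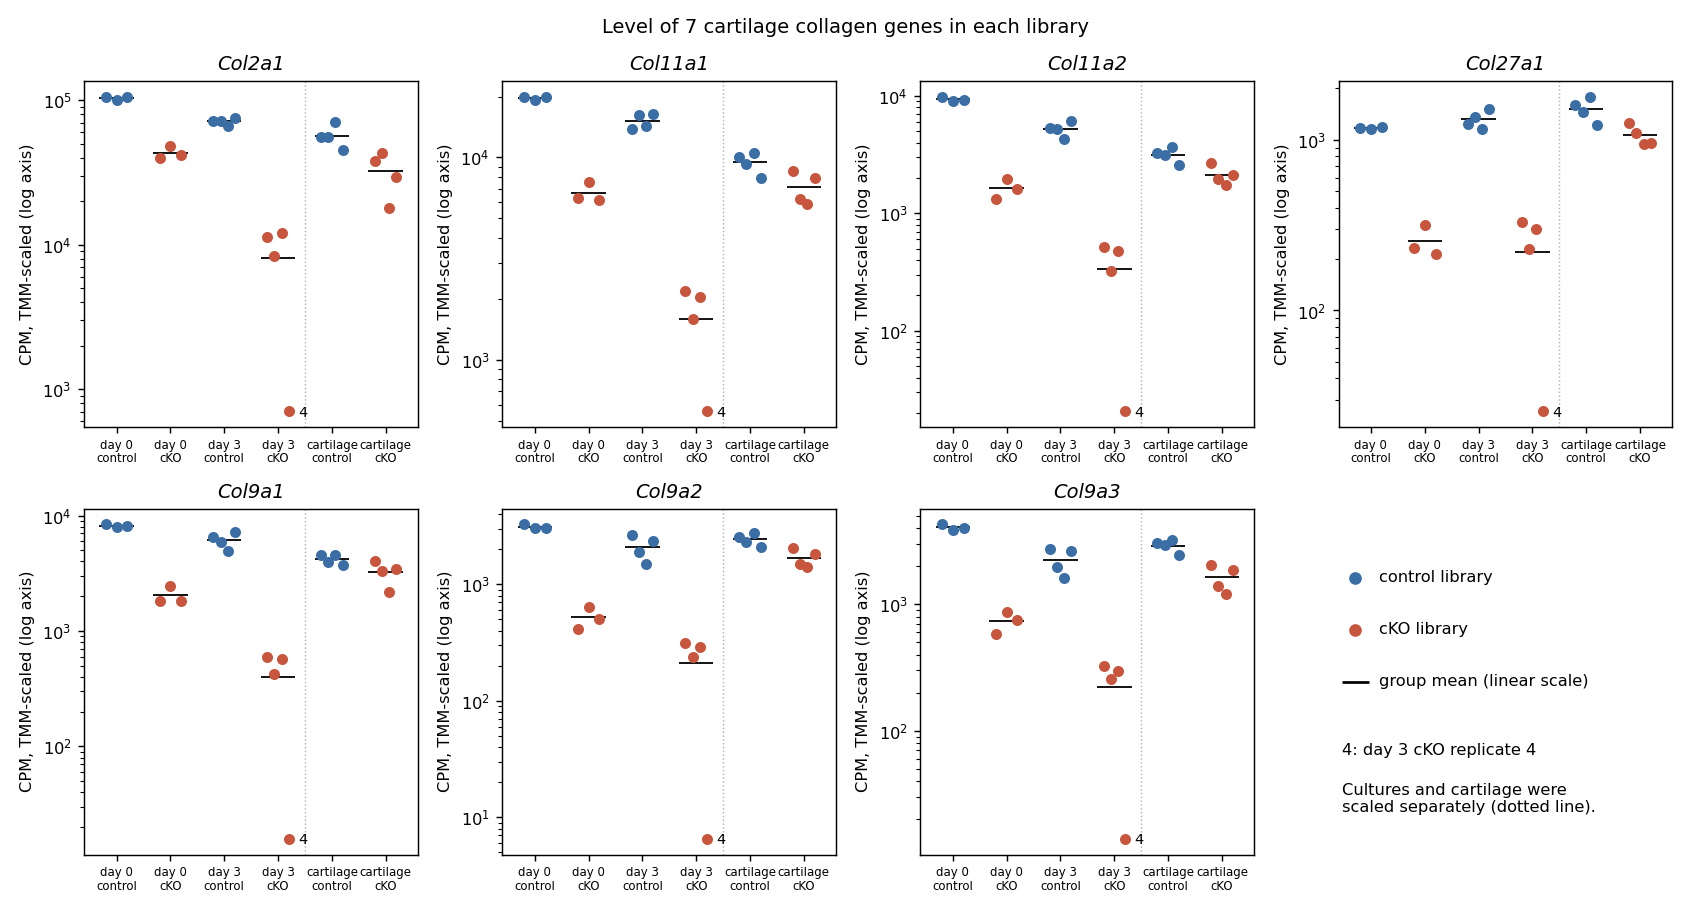
Level of each of the 7 collagen genes in every library, in TMM-scaled CPM on a log axis, for the 3 settings and both genotypes, with the group mean as a line; cultures and cartilage were scaled separately. The day 3 cKO replicate 4 point lies lowest in every panel, at 705.5 CPM for Col2a1, and the day 0 groups do not overlap in any panel.

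All 7 genes fell in untreated cKO chondrocytes. They kept 16.6 to 41.9% of the control mean, with Col9a2 the lowest and Col2a1 the highest. By edgeR's quasi-likelihood test with Benjamini-Hochberg adjustment, 7 of 7 were called lower, where 31.6% of the 15530 genes tested were called lower and 33.0% higher. In all 7, every cKO library lay below every control library, which held for 34.2% of genes tested.

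Col2a1 stood at 105795, 99891 and 104899 CPM in the control libraries and at 40179, 48300 and 41532 CPM in the cKO libraries. The groups were far apart relative to their spread, at 103528 ± 3182 and 43337 ± 4351 CPM (SD, n = 3 each). Its log2 fold change was -1.26 ± 0.192 (SE; adjusted p = 3.47e-04), the smallest of the 7. When all 14 cultures were fitted together, the same fold change was no longer called (adjusted p = 0.134), and the other 6 genes still were.

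The collagen XI genes did not move by the same amount. Col11a1 was at 19950, 19140 and 19851 CPM in control and 6315, 7551 and 6136 CPM in cKO, a log2 fold change of -1.56 ± 0.113 (adjusted p = 3.04e-06). Col11a2 was at 9818, 9010 and 9254 CPM in control and 1321, 1952 and 1624 CPM in cKO, a log2 fold change of -2.52 ± 0.136 (adjusted p = 5.85e-07). In each gene the lowest control library was above the highest cKO library. Col27a1 ran from 1153 to 1181 CPM in control and from 215.4 to 318.4 CPM in cKO, with a log2 fold change of -2.19 ± 0.127 (adjusted p = 8.44e-07).

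The 3 collagen IX chains all fell, Col9a1 by less than the other two in fold change. Col9a1 went from 8185 ± 179 CPM to 2041 ± 363 CPM (SD, n = 3 each), Col9a2 from 3120 ± 124 to 518.7 ± 109 CPM, and Col9a3 from 4066 ± 195 to 737.9 ± 145 CPM. Their log2 fold changes were -2.01 ± 0.12, -2.59 ± 0.134 and -2.47 ± 0.131, with adjusted p from 4.60e-07 to 1.03e-06. Among the 3 cKO libraries, replicate 2 was the highest for each of the 7 genes. No collagen IX value in cKO reached the lowest control value.

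The proportions between the collagens also differed. Counts per 1000 Col2a1 counts of the same library describe the make-up of the set and do not depend on the scaling between libraries. Per 1000 Col2a1 counts, Col11a1 averaged 189.8 ± 1.6 in control and 153.8 ± 5.22 in cKO (SD, n = 3 each), and Col11a2 90.4 ± 2.3 and 37.5 ± 4.02. Col9a1 averaged 79.1 ± 1.28 and 46.9 ± 3.6, and Col27a1 11.3 ± 0.258 and 5.86 ± 0.705. For all 6 genes every cKO ratio was below every control ratio. The 6 ratios share Col2a1, whose fold change was the smallest of the set, so these separations are not independent. The share of all genes with such a separation is not given here. These ratios are descriptive and were not tested.

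**Figure D2:**
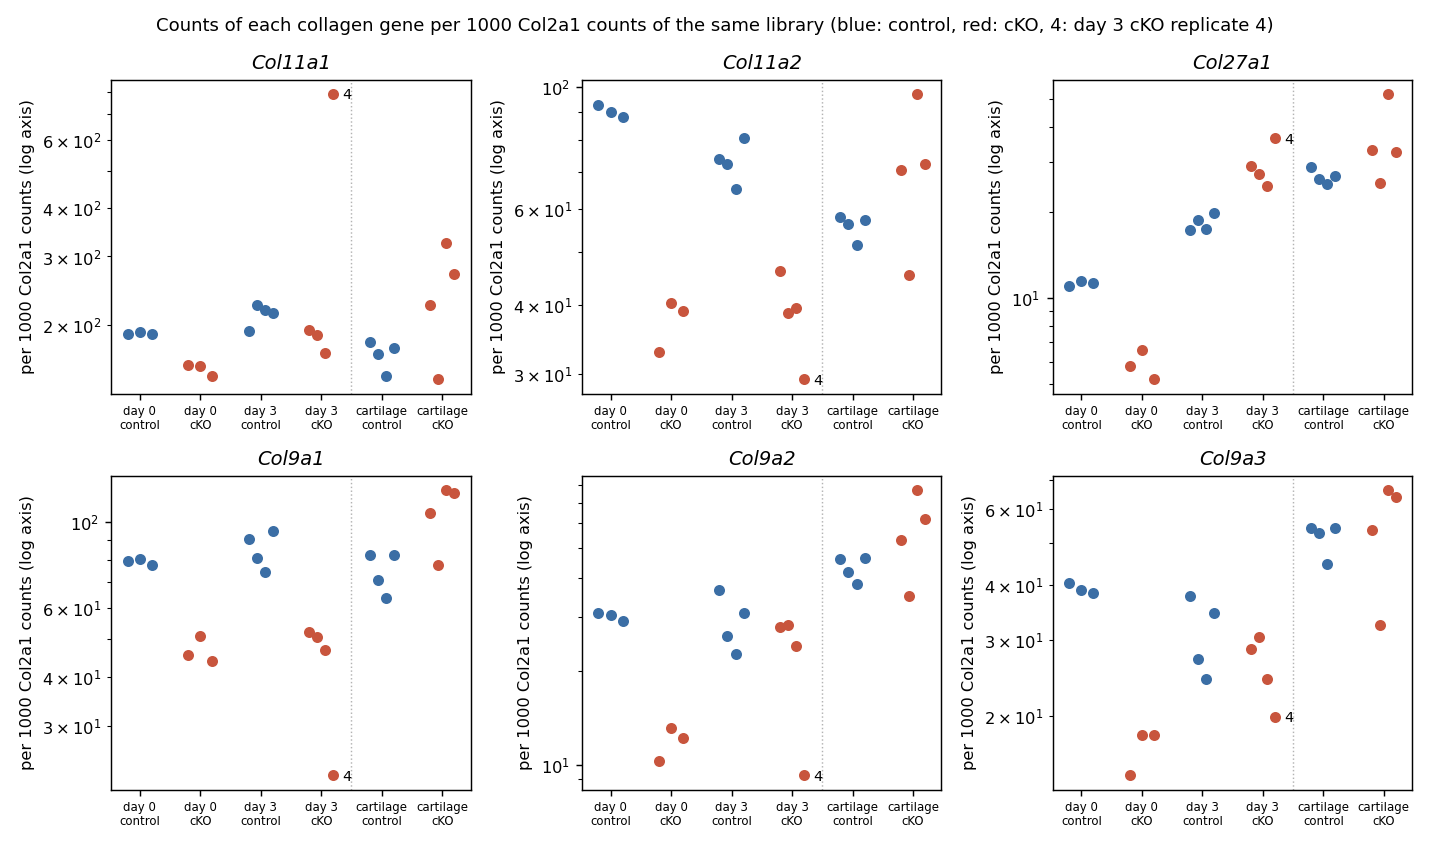
Counts of each of the 6 other collagen genes per 1000 Col2a1 counts in the same library, on a log axis, by setting and genotype (blue, control; red, cKO). At day 0 all cKO points lie below all control points, while at day 3 the Col27a1 points of cKO lie above those of control and Col11a1 of replicate 4 reaches 788.9.

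Several gene lists around these collagens moved beside them at day 0. All list counts of day 0 stand beside 31.6% of all genes tested called lower and 33.0% called higher. Of 18 matrix partners, not all of which bind the fibril, 14 fell and 1 rose. Their median log2 fold change was -1.69 against 0.01 over all genes tested. Matn1, a matrilin that bridges fibrils and proteoglycans, fell by 3.76 on the log2 scale (adjusted p = 1.15e-06), Matn4 had -2.78 (adjusted p = 4.51e-08) and Snorc, a chondrocyte membrane proteoglycan, -2.59 (adjusted p = 2.33e-07). Of 17 genes for chain hydroxylation and folding, 16 fell and 0 rose (median -0.56). They included the collagen galactosyltransferase Colgalt2 (-1.81), the prolyl 4-hydroxylase subunit P4ha3 (-1.38) and the lysyl hydroxylase partner P3h4 (-1.22).

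Of 10 regulators, 6 fell and 1 rose (median -0.48). The ubiquitin ligase Wwp2, which works with SOX9, had the largest fall (-1.70), followed by Nkx3-2, a chondrocyte homeobox repressor (-0.97), and Foxa3 (-0.86). Sox9 (-0.71, adjusted p = 4.81e-06) and Sox6 (-0.63, adjusted p = 1.24e-06) fell, while Sox5 stood at 0.03 (adjusted p = 0.421). These SOX genes were chosen after their values were seen. Of 7 secretion genes, 6 fell and 1 rose, led by Creb3l2, a transcription factor of the secretory pathway (-1.06), and Sec23a, a vesicle coat protein (-0.82).

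Collagens outside the set differed in direction. Of 7 other fibrillar collagens, 4 fell and 0 rose, namely Col1a2 (-1.37), Col1a1 (-0.75), Col3a1 (-0.66) and Col5a3 (-0.37, named after its value was seen). Of 10 other fibril-associated and network collagens, 6 fell and 2 rose, with Col16a1 at -1.97, Col14a1 at -1.09 and Col22a1 at 1.48. Among 7 collagen receptors 2 fell and 3 rose, beside 31.6% and 33.0% of all genes tested. Itga10, the integrin chain typical of chondrocytes, fell by 1.38 on the log2 scale, while Itga11, typical of fibroblasts, rose by 2.35 and Itga2 rose by 1.68. Of 12 genes for propeptide removal and crosslinking, 8 fell and 4 rose, and the 3 with the largest changes, Pcolce2 (-1.53), Pcolce (-1.03) and Adamts3 (-1.02), all serve propeptide removal. Of 5 genes for collagen breakdown tested, 3 fell, namely Ctsk, Mrc2 (-0.64) and Mmp2 (-0.52), and 1 rose, Mmp14 (0.52, named after its value was seen). Mrc2 makes an uptake receptor for collagen, and the others make enzymes.

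Markers of other cells at day 0 gave these values. The 10 skeletal muscle markers summed to 12.8 to 14.4 CPM in control, with Myod1 and Myf5 at 0, and to 74.4 to 79.3 CPM in cKO, with Myl1 at 0. The 7 fibroblast and tendon markers summed to 2786 to 4367 CPM in control and 2131 to 2322 CPM in cKO. The 8 chondrocyte markers summed to 19758 to 20919 CPM in control and 5586 to 7043 CPM in cKO. The 5 hypertrophic markers summed to 1316 to 1363 CPM in control and 700.7 to 799.9 CPM in cKO. The part of these differences in the collagen result was not tested.

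After 3 days of BMP2 all 7 genes again fell in cKO chondrocytes. They kept 6.4 to 16.8% of the control mean, with Col11a2 the lowest and Col27a1 the highest. Without replicate 4 of cKO they kept 8.41 to 21.7%. All 7 were called lower, where 22.6% of the 13924 genes tested were called lower and 25.5% higher, and no gene's groups overlapped, which in this direction held for 23.5% of genes tested.

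Col2a1 stood at 71938, 72400, 66066 and 75929 CPM in the 4 control libraries, and at 11295, 8399, 12108 and 705.5 CPM in cKO replicates 1 to 4. Replicate 4 was far below the other cKO libraries, whose mean was 15-fold higher. The log2 fold change was -3.13 ± 0.719 (adjusted p = 0.00717), and -2.75 without replicate 4 (adjusted p = 8.93e-06). Col2a1 ranked between places 4 and 5 by counts in cKO replicates 1 to 3, where Fn1 (fibronectin) was first, and at place 137 in replicate 4.

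Col11a1 was the gene least reduced in replicate 4. It stood at 13815, 16245, 14379 and 16318 CPM in control and at 2185, 1581, 2047 and 556.6 CPM in cKO. The mean of cKO replicates 1 to 3 was 3.48-fold above replicate 4, against 11.2-fold to 43.2-fold for the other 6 genes. Its log2 fold change was -3.24 ± 0.397 (adjusted p = 3.14e-04), with the smallest SE of the 7 genes, and -2.97 without replicate 4 (adjusted p = 1.28e-06).

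Col11a2 stood at 5318, 5251, 4300 and 6135 CPM in control and at 520.5, 325.8, 477.9 and 20.7 CPM in cKO, and had the largest log2 fold change, -3.96 ± 0.794 (adjusted p = 0.00371). Col27a1 stood at 1245, 1362, 1154 and 1515 CPM in control and at 328.2, 229.5, 300.8 and 25.7 CPM in cKO. Its log2 fold change, -2.57 ± 0.62 (adjusted p = 0.00901), was the smallest. Neither gene had a cKO library near its lowest control library. Without replicate 4 their log2 fold changes were -3.57 and -2.20, and both were still called.

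The collagen IX chains in cKO fell to between 15.8 and 591 CPM for Col9a1, between 6.52 and 315.7 CPM for Col9a2 and to at most 323.2 CPM for Col9a3, with replicate 4 the lowest library each time. In control they ran from 4915 to 7216, 1499 to 2633 and 1613 to 2721 CPM. Their log2 fold changes were -3.93 ± 0.867, -3.29 ± 0.879 and -3.32 ± 0.764, with adjusted p of 0.00592, 0.0143 and 0.00722. Without replicate 4 they were -3.53, -2.89 and -2.93, and all 3 were called. In control, replicates 2 and 3 were the lowest for all 3 chains, and in cKO, replicate 2 was the lowest of replicates 1 to 3.

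The make-up of the set at day 3 differed from that at day 0. Per 1000 Col2a1 counts, Col27a1 averaged 18.4 ± 1.24 in control and 29.4 ± 4.96 in cKO (SD, n = 4 each), and every cKO library was above every control library. Col11a2 averaged 73.1 ± 6.44 and 38.4 ± 6.89, and Col9a1 85.1 ± 9.26 and 43.1 ± 14, with every cKO library below control. For Col9a2 and Col9a3 the groups overlapped. For Col11a1 the cKO libraries were at 193.5, 188.2, 169.1 and 788.9, against 192.0 to 224.4 in control, so replicate 4 alone was far above. Without replicate 4 the Col27a1 ratios in cKO ran from 24.8 to 29.1 and still lay above control. Such a ratio is higher for any gene that fell less than Col2a1. The log2 fold changes were -2.57 for Col27a1 and -3.13 for Col2a1.

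**Figure D3:**
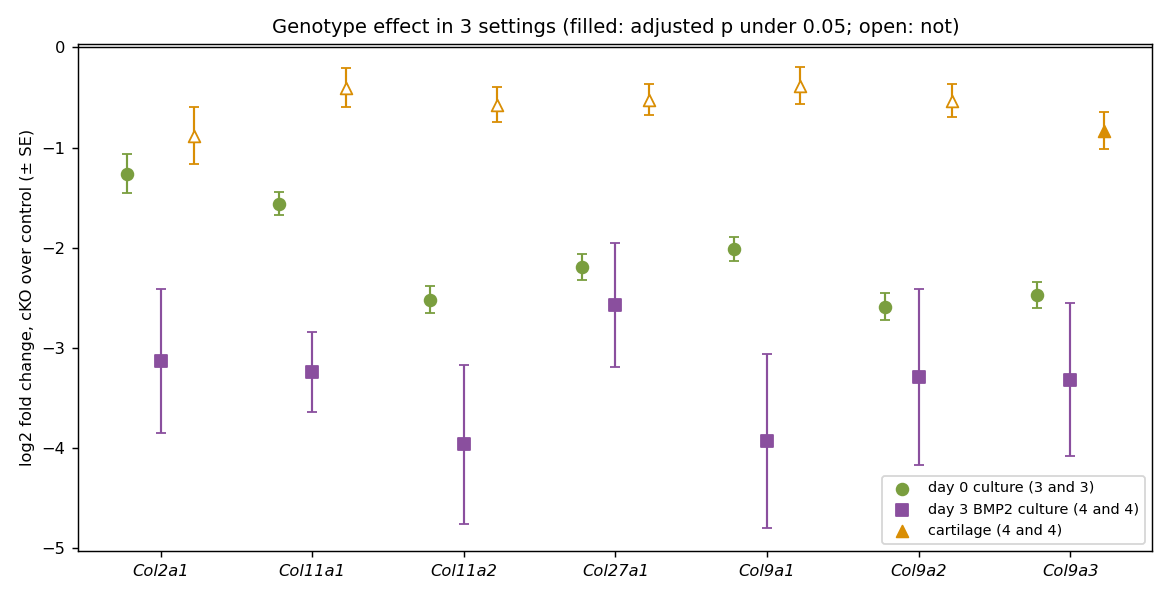
Log2 fold change of each gene, cKO over control, with its standard error, in day 0 cultures, day 3 BMP2 cultures and cartilage; filled symbols had an adjusted p under 0.05. All 21 values are below 0, those of cartilage lie between -0.88 and -0.38, and 1 of the 7 cartilage symbols, Col9a3, is filled.

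The neighbouring lists at day 3 were tested on the same libraries. Without cKO replicate 4, 26.4% of all genes tested were called lower and 28.8% higher, against 22.6% and 25.5% with it. Both shares stand beside all list counts of day 3. Of the 18 matrix partners, 10 fell and 2 rose (median -1.99 against 0.01 over all genes tested), and without cKO replicate 4, 13 fell and 4 rose. Matn1 fell by 6.13 on the log2 scale (adjusted p = 0.00363), and lower values were also called for Ucma, a small secreted cartilage protein (-3.68, adjusted p = 0.0109), and Hapln1, the link protein that ties aggrecan to hyaluronan (-3.67, adjusted p = 0.00103). Without replicate 4 these were at -5.72, -3.28 and -3.33, and all 3 were called. Of 17 genes for hydroxylation and folding, 14 fell and 2 rose (median -0.72). They were led by Colgalt2 (-3.48), the collagen chaperone Serpinh1 (-1.11) and the prolyl 3-hydroxylase P3h1 (-1.07). Without replicate 4 the counts were again 14 and 2, with these genes at -3.21, -1.03 and -1.20.

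Of the 10 regulators at day 3, 6 fell and 1 rose (median -1.15). Nkx3-2 (-1.68), Wwp2 (-1.63) and Sox6 (-1.56) had the largest falls. Sox9 (-1.45, adjusted p = 0.0315) and Sox5 (-0.70, adjusted p = 0.0212) fell as well, both chosen after their values were seen. Without cKO replicate 4, 7 regulators fell and 1 rose. The values were then -1.64 for Nkx3-2, -1.46 for Wwp2, -1.32 for Sox6, -1.12 for Sox9 and -0.52 for Sox5, and all were called. Of the 7 secretion genes, 4 fell and 1 rose, with Creb3l2 at -0.96, Sec23a at -0.54 and Klhl12 at 0.36. Without replicate 4 the counts were again 4 and 1, with these genes at -0.96, -0.60 and 0.33.

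No fibrillar collagen outside the set was called lower at day 3. Of 7 tested, 0 were called lower and 4 higher, with a median of 0.77. Col24a1 rose by 1.29, Col5a2 by 0.83, Col5a3 by 0.80 and Col1a1 by 0.77 on the log2 scale, the last chosen after its value was seen. The same count of 4 rose without cKO replicate 4, with values of 1.42, 0.42, 0.53 and 0.65 for these genes. Col1a2 and Col3a1, which had fallen at day 0, stood at -0.29 and -0.50 (adjusted p = 0.14 and 0.139).

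Among 10 other associated and network collagens at day 3, 1 fell, Col16a1 (-1.03), and 1 rose, Col10a1 (3.28, adjusted p = 0.0402). Col10a1, the collagen of hypertrophic cartilage, was called lower at day 0 (-0.78, named after its value was seen). At day 3 it was not called without cKO replicate 4 (0.82, adjusted p = 0.0804), where 2 of the list fell, Col16a1 (-0.84) among them, and 2 rose. Of 7 receptors 1 fell, Itga10 (-2.85), and 4 rose, among them Itga11 (4.03) and Itga2 (1.92). Without replicate 4, 2 fell and 5 rose, with Itga10 at -2.61, Itga11 at 3.25 and Itga2 at 1.76. Of the 12 genes for propeptide removal and crosslinking, 2 fell, Pcolce2 (-3.39) and Pcolce (-0.84), and 1 rose, the lysyl oxidase Lox (1.16). Without replicate 4, 4 fell and 3 rose, with Pcolce2 at -3.37, Pcolce at -0.74 and Lox at 1.22. Among the degrading enzymes, Mmp13, the collagenase that acts on type II collagen, rose by 2.71 and Mmp14 by 1.17, while Mmp2 fell by 1.14. Without replicate 4, Mmp13 was at 2.50, Mmp14 at 0.92 and Mmp2 at -1.17, and 3 of the 5 breakdown genes fell and 2 rose.

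**Figure D4:**
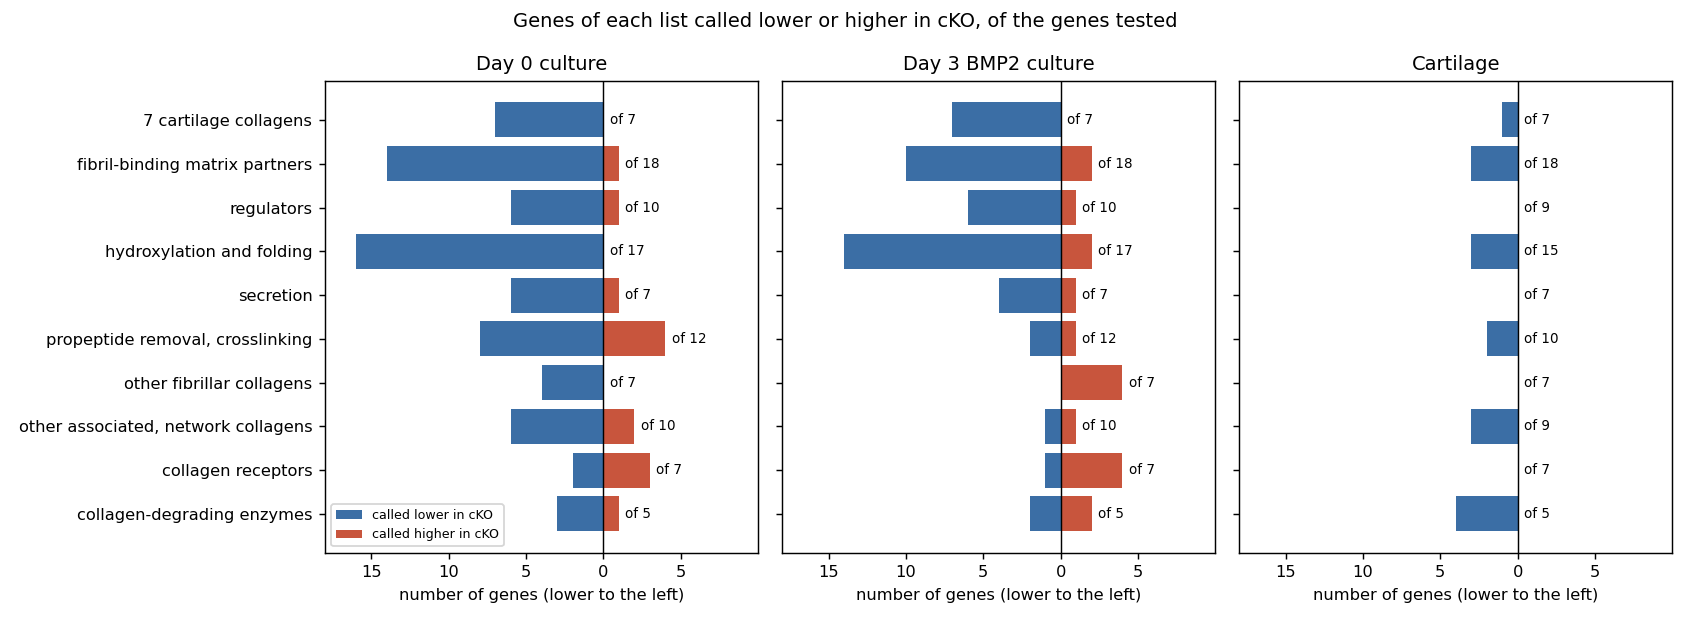
Number of genes of each list called lower (blue, left) or higher (red, right) in cKO, of the number tested, in day 0 cultures, day 3 BMP2 cultures and cartilage. The other fibrillar collagens hold 4 lower and 0 higher at day 0, 0 lower and 4 higher at day 3, and 0 called in cartilage. Not all genes labelled fibril-binding matrix partners bind the fibril, and the genes labelled collagen-degrading enzymes include the uptake receptor Mrc2.

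Muscle and hypertrophic markers differed between the genotypes at day 3. The 10 muscle markers summed to 1.65 to 2.17 CPM in control, with Myf5 and Actc1 at 0, and to 1226, 1693, 2072 and 155.4 CPM in cKO replicates 1 to 4, where 9 of 10 were above 3 counts in every library and Myf5 was at 0. The 5 hypertrophic markers summed to 236.9 to 476.8 CPM in control and to 962.4, 1312, 898.1 and 2504 CPM in cKO. The fibroblast and tendon markers summed to 6231 to 7867 CPM in control and 8590 to 9755 CPM in cKO. Replicate 4 thus had the lowest muscle and the highest hypertrophic sum of the cKO group as well as the lowest collagens. The part of these markers in the collagen result was not tested. The blood markers were near 0, at no more than 0.264 CPM in any culture of day 3.

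In cartilage the 7 genes kept 56.2 to 77.4% of the control mean in cKO, and 1 of 7, Col9a3, was called lower. Over all 8793 genes tested, 3.04% were called lower and 3.15% higher. All 7 fold changes were negative, with a median of -0.53 against 0.01 over all genes tested. In 3 genes, Col2a1, Col9a2 and Col9a3, every cKO library was below every control library, which held for 6.40% of genes tested. Library pool 1 held all 4 control libraries and pool 2 all 4 cKO libraries, so pool and genotype cannot be told apart in any cartilage value below.

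Col9a3 stood at 3027, 2945, 3194 and 2456 CPM in control replicates 1 to 4 and at 2055, 1400, 1202 and 1874 CPM in cKO replicates 1 to 4. The lowest control library was above the highest cKO library. The log2 fold change was -0.83 ± 0.182 (adjusted p = 0.0117, edgeR with sex as a covariate), and it was called in all 15 alternatives, with values from -0.98 to -0.71.

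Col2a1 stood at 55831, 55637, 71274 and 45337 CPM in control and at 38240, 43041, 18103 and 29295 CPM in cKO. Replicate 3 of cKO, a female, was the lowest and replicate 2, a male, lay just under the lowest control library. The log2 fold change was -0.88 ± 0.284, the largest in size of the 7, and missed the threshold (adjusted p = 0.0822). It was called by DESeq2 (-0.89, adjusted p = 5.79e-04), without the filter on low counts (-0.91, adjusted p = 1.74e-11) and in the estimated counts (-0.94, adjusted p = 0.0284). The fold change hardly moved between these fits while the adjusted p moved widely, so the call depended on the method.

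Col11a2 stood at 3233, 3128, 3668 and 2597 CPM in control and at 2699, 1955, 1757 and 2123 CPM in cKO. Replicate 1 of cKO, a male, overlapped the control range. The log2 fold change was -0.57 ± 0.172 (adjusted p = 0.0622). For Col11a1 the log2 fold change was -0.40 ± 0.194 (adjusted p = 0.24), with control libraries from 7893 to 10474 CPM and cKO libraries from 5870 to 8576 CPM. Col27a1 had -0.52 ± 0.154 (adjusted p = 0.0573), with ranges of 1221 to 1787 and 941.1 to 1261 CPM. Both overlapped between the genotypes.

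Col9a1 and Col9a2 were not called in cartilage. Col9a1 ran from 3721 to 4595 CPM in control and from 2187 to 4022 CPM in cKO, with a log2 fold change of -0.38 ± 0.185 (adjusted p = 0.244). Col9a2 ran from 2099 to 2736 CPM in control and from 1394 to 2034 CPM in cKO, without overlap, with a log2 fold change of -0.53 ± 0.164 (adjusted p = 0.0693). The call of the set moved with the method: DESeq2 called 5 of the 7 genes lower, edgeR without the filter on low counts called 6, and the estimated counts gave 5. The share of all genes that each of these methods called is not given here, so these counts cannot be set against it. Leaving out any 1 library gave 1, Col9a3, each time.

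Relative to Col2a1, the other collagens in cartilage overlapped between the genotypes. Per 1000 Col2a1 counts, Col11a1 averaged 167.3 ± 14.6 in control and 240.6 ± 76.1 in cKO (SD, n = 4 each), Col9a1 74.8 ± 9.06 and 105.4 ± 19.9, and Col9a3 51.5 ± 4.52 and 54.2 ± 15.4. Replicate 2 of cKO had the lowest and replicate 3 the highest ratio for each of the 6 genes within the cKO group. These 2 libraries had the highest and the lowest Col2a1 level of that group.

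The test of the genotype effect in females against males called 0 of the 7 genes by edgeR, with 0 at an unadjusted p under 0.05 and 0 by DESeq2. Over all genes tested, 0.0114% were called lower in this contrast and 0% higher. The differences, female minus male, ran from -0.84 ± 0.577 for Col2a1 to -0.02 ± 0.42 for Col11a1 on the log2 scale, with unadjusted p of 0.165 and 0.955. With 2 libraries per sex and genotype, the SE of 0.316 to 0.577 limited what could be detected.

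In cartilage every call in the neighbouring lists was lower in cKO. Over all genes tested there, 3.04% were called lower and 3.15% higher. Of the 18 matrix partners 3 fell, namely Matn1 (-0.93), Matn3 (-0.80) and Hapln1 (-0.73), and 0 rose. Of 15 hydroxylation and folding genes tested 3 fell, namely Crtap (-0.87), P3h4 (-0.65) and P3h1 (-0.58), which all belong to complexes that hydroxylate collagen chains. Of 9 regulators tested and of 7 other fibrillar collagens none was called, and Sox9 stood at -0.43 (adjusted p = 0.161), chosen after its value was seen. Of 9 other associated and network collagens 3 fell, namely Col10a1 (-1.48), Col16a1 (-0.93) and Col12a1 (-0.71).

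Of 5 genes for collagen breakdown tested in cartilage 4 fell and 0 rose, namely Mmp13 (-2.17), Ctsk (-0.82), Mrc2 (-0.70) and Mmp2 (-0.65, named after its value was seen). Of 10 propeptide and crosslinking genes tested 2 fell, Pcolce2 (-0.67) and Loxl3 (-0.53). None of the 7 receptors and none of the 7 secretion genes was called. Mmp13, called higher in cKO at day 3 with and without replicate 4, was called lower in cartilage. Col10a1 was also called lower in cartilage, while its higher value at day 3 was called only with replicate 4. From these lists, Col16a1, Pcolce2, Matn1, Hapln1, Crtap, P3h1, P3h4, Mmp2 and Mrc2 were called lower in all 3 settings, gathered after their values were seen.

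Markers of other cells in cartilage stood lower in cKO for several lists. The 7 fibroblast and tendon markers, Col1a1 and Col3a1 among them, summed to 30506 to 60854 CPM in control and 15260 to 37856 CPM in cKO. The 8 chondrocyte markers, which leave out the cartilage collagens, summed to 12464 to 17291 and 7394 to 12358 CPM. Sums of different lists were not compared with each other. The 7 osteoclast and macrophage markers summed to 142.6 to 486 CPM in control and 67.2 to 138.3 CPM in cKO, and the 5 blood markers to 165.9 to 915.9 and 13.4 to 388.9 CPM. The 5 hypertrophic markers summed to 639.9 to 1398 and 81.8 to 792.4 CPM. The 8 of 10 muscle markers found in the table summed to 12.8 to 17.3 and 58.9 to 91 CPM, with Myh3 at 0 in control, and Myog and Myf5 at 0 in cKO. The part of these markers in the collagen values was not tested.

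From day 0 to day 3, 6 of the 7 genes were lower in control cultures at day 3 and none was called. Day, BMP2 and count table changed together, so their parts cannot be told apart. By edgeR 0 of 7 were called, with 0 at an unadjusted p under 0.05 and 0 by DESeq2, where 28.8% of the 14909 genes tested were called lower and 28.1% higher. All 6 genes other than Col27a1 had every day 3 library below every day 0 library, which held for 33.2% of genes tested. The fold changes in control ran from -0.87 for Col9a3 and -0.83 for Col11a2 to -0.37 for Col11a1, with Col27a1 at 0.18.

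This absence of calls in control turned on a cKO library. The 14 cultures shared 1 estimate of spread, and without day 3 cKO replicate 4, 6 of 7 genes were called lower in control at the same fold changes. The adjusted p then ran from 5.18e-04 for Col9a3 to 0.0242 for Col9a1, with 33.4% of all genes tested called lower. In a fit of the 7 control cultures alone, chosen after seeing the data, 6 were called lower as well. Col27a1 was not called in either. The share of all genes called in the fit of control cultures alone is not given here.

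In cKO cultures 5 of the 7 genes fell from day 0 to day 3, where 29.8% of genes tested were called lower and 32.4% higher. In 6 of the 7 every day 3 library lay below every day 0 library, which held for 31.0% of genes tested. Col2a1 fell by 2.41 on the log2 scale (SE 0.599, adjusted p = 0.00344). The other calls were Col9a1 (-2.35), Col11a2 (-2.28), Col11a1 (-2.07) and Col9a3 (-1.73). Col9a2 had -1.29 ± 0.712 (adjusted p = 0.133) and Col27a1 -0.21 ± 0.526 (adjusted p = 0.747). Without replicate 4 of day 3 cKO, 6 genes were called lower, Col9a2 among them (-0.88, adjusted p = 0.00108), and Col27a1 changed sign to 0.16. In that fit 32.7% of all genes tested were called lower and 34.5% higher. Col9a3 was not called without day 0 cKO replicate 2 (-1.60, adjusted p = 0.075) or replicate 3 (-1.72, adjusted p = 0.0586). In a fit of the 7 cKO cultures alone, chosen after seeing the data, 2 were called, Col2a1 and Col11a1. The share of all genes called in the fit of cKO cultures alone is not given here.

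**Figure D5:**
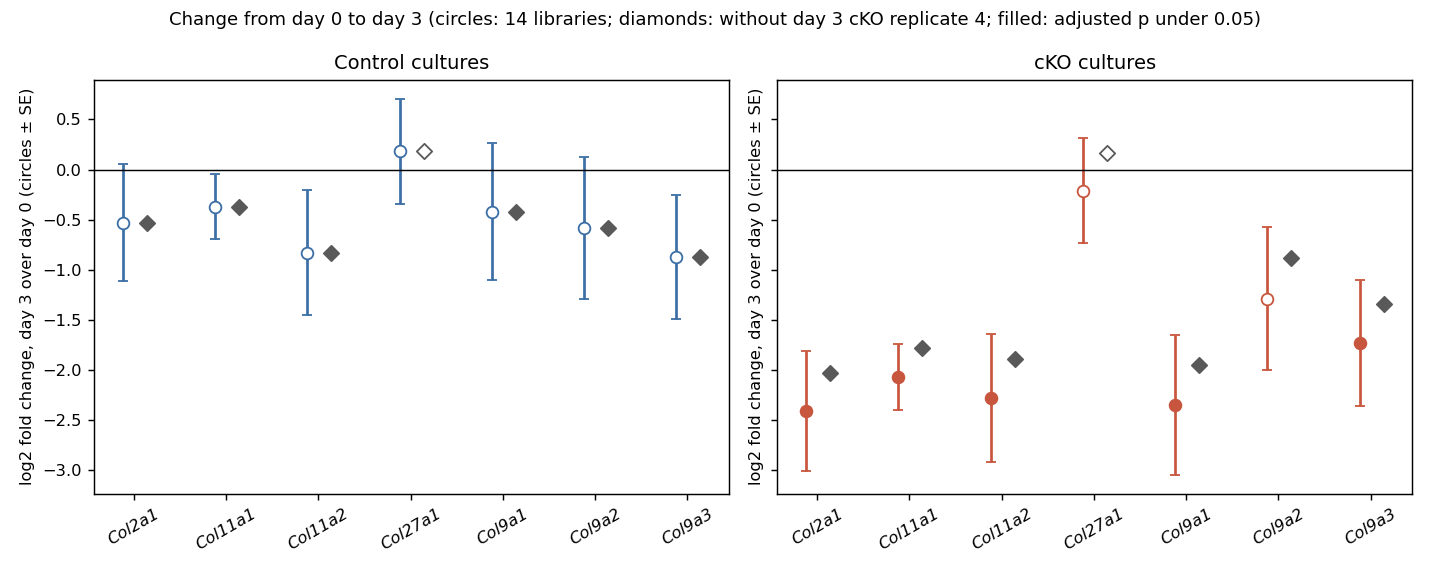
Log2 fold change from day 0 to day 3 in control (left) and cKO cultures (right): circles with standard errors use all 14 cultures, diamonds leave out day 3 cKO replicate 4, and filled symbols had an adjusted p under 0.05. In control the circles are all open and 6 of the 7 diamonds are filled, and Col27a1 stays near 0 in both genotypes.

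Whether the cKO effect was unequal on the 2 days was tested as an interaction, day 3 minus day 0, over the 14 cultures. It was called for 1 of 7 genes, Col11a1 (-1.69 ± 0.467, adjusted p = 0.0261), where 6.89% of genes tested were called in that direction and 9.94% in the other. For Col2a1 it was -1.88 ± 0.841 (adjusted p = 0.149) and for Col9a1 -1.93 ± 0.98 (adjusted p = 0.203). For Col11a2, Col9a3 and Col9a2 it was -1.45, -0.87 and -0.71 (adjusted p = 0.305, 0.556 and 0.687). Col27a1 had the smallest value, -0.39 ± 0.745 (adjusted p = 0.776).

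This interaction depended on single libraries. Without day 3 cKO replicate 4, 4 genes were called: Col9a1 (-1.53, adjusted p = 2.47e-04), Col2a1 (-1.50, adjusted p = 8.07e-04), Col11a1 (-1.41, adjusted p = 1.59e-04) and Col11a2 (-1.05, adjusted p = 0.00648). In that fit 11.6% of all genes tested were called lower, and Col27a1 was at -0.01. The call of Col11a1 was lost without day 0 control replicate 1 (-1.71, adjusted p = 0.0595), replicate 2 (-1.68, adjusted p = 0.064) or replicate 3 (-1.70, adjusted p = 0.0606), and without day 0 cKO replicate 2 (-1.60, adjusted p = 0.0652).

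Per kilobase of annotated exon, which allows levels of different genes to be set side by side in the cultures, Col2a1 was first in every culture group. In day 0 control it stood at 11201 ± 344.2 CPM per kilobase (SD, n = 3). Col9a1 followed at 1615 ± 35.3, then Col11a1 at 1542 ± 34.7 and Col11a2 at 1362 ± 60.3, each clear of the next. Col9a3 at 1055 ± 50.5 and Col9a2 at 1008 ± 40.1 overlapped, and Col27a1 was last at 89.6 ± 1.1. In day 0 cKO Col11a1 came second, at 523.2 ± 60.5, and overlapped with Col9a1 at 402.8 ± 71.6.

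At day 3 the order in control was Col2a1 (7745 ± 442.2 CPM per kilobase, SD, n = 4), Col9a1 (1207 ± 192.7), Col11a1 (1192 ± 100.6), Col11a2 (763.9 ± 109.2), Col9a2 (674.9 ± 161.4), Col9a3 (578.8 ± 138.6) and Col27a1 (101.3 ± 12). Col9a1 and Col11a1 overlapped, as did Col11a2 with Col9a2 and Col9a2 with Col9a3. In cKO replicates 1 to 3 Col2a1 stood at 1147 ± 210.9 CPM per kilobase (SD, n = 3), Col11a1 at 152.1 ± 24.9 and Col9a1 at 104.2 ± 17.5. Col11a2 had moved to place 6, at 64.2 ± 14.9, after Col9a2 (90.9 ± 13) and Col9a3 (75.6 ± 8.84), whose ranges each overlapped with the next. Cartilage libraries read the 3′ end of transcripts, so levels of different genes were not compared there.

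The 7 genes followed one another closely across libraries. Pearson's r between the log2 CPM of 1 gene and the mean of the other 6 ran from 0.943 (Col27a1) to 0.997 (Col11a2) over the 14 cultures, and from 0.89 (Col2a1) to 0.979 (Col11a2) over the 8 cartilage libraries. These values are descriptive, since the points share genotype, day and library.

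Among 11858 other genes, the 5 whose level was most like the mean of the 7 over the 14 cultures were Matn1 (r = 0.996), Xylt1 (0.996), Slc7a2 (0.994), Lpar4 (0.992) and Acan (0.992). Acan makes aggrecan, the main cartilage proteoglycan, and Xylt1 starts its glycosaminoglycan chains. Slc7a2 is an amino acid carrier and Lpar4 a receptor for lysophosphatidic acid. Over the 8 cartilage libraries the same r was 0.94 for Matn1 and 0.966 for Acan, 0.844 for Lpar4 and 0.613 for Xylt1, and -0.492 for Slc7a2. Within the 7 control cultures r ran from 0.417 (Lpar4) to 0.978 (Acan), and within the 7 cKO cultures, where replicate 4 of day 3 lies far from the rest, from 0.988 to 0.998.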

How the data were processed

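Gene counts of 22 mouse libraries were analysed. For the cultures the authors deposited estimated counts per gene, 27.547% (day 0) and 20.524% (day 3) of them not whole, from a directional RNA library kit, per the labels' protocols; the aligner and counter are not given in the sources used here. For cartilage the authors deposited whole-number counts, the main values, and estimated counts, an alternative, from barcoded 3′ libraries (BRB-seq), per the labels' protocols. The submitters' processing notes name the build GRCm38 and, for cartilage, UMI-tools 1.1.1, Trim Galore 0.6.7, HISAT2 2.2.1, featureCounts 2.0.1 and DESeq2 1.34.0; whether molecular identifiers were collapsed was not stated. Of the columns with values of a sample, 0 went unused.

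Estimated counts were rounded. Whole tables were tested with edgeR 4.0.16 (R 4.3.3; quasi-likelihood F test, TMM scaling, filterByExpr with minimum counts of 10 and 15). Benjamini-Hochberg adjusted p-values under 0.05, across the whole table, count as calls, and SE was obtained from the fold change and F. Genotype was fitted within each setting (sex as covariate in cartilage), and the day changes and interaction in the 14 cultures. CPM were scaled over all 14 cultures and separately over the 8 cartilage libraries. A count of 3 corresponded to 0.05798 to 0.07186 CPM at day 0, 0.1586 to 0.2078 at day 3 and 1.588 to 2.727 in cartilage, counting error only. Of the gene identifiers 34582 of 34866 (cultures) and 23884 of 23911 (cartilage) matched GENCODE on GRCm38; 17 of 18 names in the hydroxylation list were in the tables. The fits were tested on simulated counts. From each list up to 3 called genes per comparison with the largest absolute fold change were named. Likeness was computed on log2 CPM (prior count 2), for genes whose mean reached 1. Alternatives were no TMM scaling, DESeq2 1.42.0, no filter, a replicate block, leaving out each library, all cultures together, estimated counts, no sex covariate and no ribosomal RNA genes. Fits of 1 genotype's cultures alone, and 2 alternatives for the sex contrast, were chosen after seeing the data. The 7 genes and all lists were chosen with earlier results of these data known.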

Additional observations from a re-analysis of the deposited data

Results flagged for a closer look

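The genotype effect on Col11a1 differed between the cultures: the interaction, day 3 minus day 0, was -1.69 on the log2 scale (SE 0.467, adjusted p = 0.0261 by edgeR's quasi-likelihood test). The log2 fold change was -1.56 at day 0 and -3.24 at day 3. Over 18 alternatives the value ran from -1.90 to -1.41 with adjusted p from 1.59e-04 to 0.0652, and 14 of them called it. Of 28 groups of 4 libraries (7 genes in 4 groups), 0 had a library past the limit of Dixon's gap test, which was run on linear CPM. On that scale the gap of day 3 cKO replicate 4 to its group did not reach the limit for any of the 7 genes. On the log2 scale its mean level over the 7 genes, centred on all cultures, was -5.65, against -1.90 to -1.42 in the other day 3 cKO libraries.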

How the results depend on the processing

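The call of all 7 genes held at day 3 under all 13 alternatives, and at day 0 under 10 of 11, with 6 called in the fit of 14 cultures together. In cartilage the count of 1 became 5 with DESeq2, 6 with no filter and 5 with estimated counts, given without the share of all genes called by each. For the day change in control, leaving out 1 library gave 0 to 6 called (6 without day 3 cKO replicate 4), and control samples alone gave 6. In cKO, cKO samples alone gave 2. For the interaction, leaving out 1 library gave 0 to 4 called. Values that changed sign were not called. Col9a1 stood at 0.01 for the day change in control with the replicate block, and Col27a1 at 0.16 for the day change in cKO without day 3 cKO replicate 4 (-0.50 to 0.16 over all single libraries left out). Without TMM, the difference between females and males was 0.07 for Col11a1 and 0.01 for Col9a3. With 1 library left out it ran from -0.26 to 0.23 for Col11a1, -0.48 to 0.03 for Col11a2, -0.54 to 0.02 for Col27a1, -0.33 to 0.11 for Col9a2 and -0.45 to 0.22 for Col9a3. The cause of these shifts was not tested. The replicate block left the counts at 7, 7 and 1 for genotype at day 0, at day 3 and in cartilage, 0 and 5 for the day changes in control and cKO, 1 for the interaction and 0 for females against males. Same-numbered samples showed no clear shared deviation (r from -0.0819 to 0.265 in cartilage and -0.215 to 0.166 in culture). With so few libraries per group and no litter or batch in the labels, these values cannot decide whether the numbers pair the samples. Cartilage libraries held 1100198 to 1888896 counts, which limits precision there.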
